A study of Homo sapiens with 10 samples.

Results

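The genes described here encode the RING and PCGF core subunits of Polycomb repressive complex 1 (PRC1). They are RNF2 and its paralogue RING1, and the PCGF genes BMI1 (also called PCGF4), PCGF1, PCGF3, PCGF5 and PCGF6. They were chosen by name, as the RING and PCGF core of the complex, and all 7 were found among the 57445 gene identifiers of the count tables. All 7 also passed the filter on low counts, with 747 to 20337 counts per library. PCGF2 is not analysed here.

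PC3 cells, an established human line from a bone metastasis of prostate cancer, were profiled by RNA-seq in 5 groups of 2 libraries. RNF2 shRNA1 and the libraries labelled RNF2 shRNA2 were made from cells that stably express a hairpin (shRNA) labelled as directed at RNF2. PRT4165 and GW-516 cells were treated with those compounds for 48 hours; PRT4165 is known as an inhibitor of the ubiquitin ligase activity of PRC1, and GW-516 is named in the labels by its code alone. Scramble shRNA cells, which stably express a non-targeting hairpin, were the control for all groups, and the study's title asks how PRC1 acts in metastasis of double-negative prostate cancer. The labels name no genotype change or second agent, no dose, no vehicle-treated group and no number of clones, and the hairpin cells are not stated to be a single clone or a pool. A compound set against Scramble therefore also differs by vehicle, by hairpin vector and by culture, and these cannot be told apart from the compound.

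PRC1 is built around a heterodimer of RNF2 or RING1, which are RING-type E3 ubiquitin ligases, with 1 PCGF protein. The dimer attaches ubiquitin to histone H2A at a conserved lysine, a mark found on silenced genes. The PCGF subunit sets the kind of complex. BMI1 and PCGF2 join the CBX and PHC proteins of canonical PRC1, which binds the histone methylation laid down by PRC2. PCGF1 works with BCOR and KDM2B, PCGF3 and PCGF5 with AUTS2-type partners, and PCGF6 with MGA, MAX, E2F6 and L3MBTL2, in variant complexes that carry RYBP or YAF2. BMI1 is known for repression of the INK4 cell cycle inhibitor locus.

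Totals ran from 65877850 to 108380198 counts per library, the highest in the libraries labelled RNF2 shRNA2, replicate 2. Epithelial and PC3 markers KRT8, KRT18, VIM, CD44 and EPCAM were at 95.9 CPM or more in every library (CPM here are counts scaled to library size with TMM factors), while the luminal prostate markers KLK3 and KLK2 and the neuroendocrine markers SYP and CHGA were at 0.0558 CPM or less. The 4 haematopoietic markers summed to 0.202 to 1.24 CPM, with CD3E at 0. Of the 4 fibroblast and endothelial markers measured, COL1A2 reached 136 to 258 CPM, and DCN, PDGFRB and VWF were at 0.910 CPM or less. Libraries of a pair were near-identical in 3 groups and differed more in PRT4165 and in the libraries labelled RNF2 shRNA2. Over genes with at least 20 counts in the pair, chi-square per degree of freedom was 2.19 in RNF2 shRNA1, 12.2 in the libraries labelled RNF2 shRNA2, 6.89 in PRT4165, 2.20 in GW-516 and 2.15 in Scramble. Separate cultures for the libraries of a pair are not stated in the labels, so every p-value measures only the spread between these libraries, which may be technical. Per the file headers, names of all 10 libraries begin with MDV3 where the labels say PC3. Those of GW-516 are named Th4, and the libraries labelled RNF2 shRNA2 carry 20155. Replicate 2 of the latter group alone also carries L005only in its name. The labels do not say what these names mean.

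The targeted gene went against the label in 1 hairpin group. In RNF2 shRNA1, RNF2 mRNA fell and PCGF6 fell with it. In the libraries labelled RNF2 shRNA2, RNF2 was higher than in Scramble and BMI1 was the member that fell most. Results from those libraries are given under their label, and no direction in them is read as that of an RNF2 knockdown.

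Promoter sequences are shown for RNF2, BMI1 and PCGF6, since these 3 members had the largest falls in mRNA. Each line gives the 250 bases before the annotated gene start on the gene's own strand, from RefSeq on GRCh38.p14. Capitals mark matches to the E-box CACGTG, the site of the MYC and MAX family, and to CCATNTT, the core letters of the YY1 motif. Both were searched on both strands, after the sequences had been seen, and the marked matches do not overlap.
RNF2, chr1:185045308-185045557, forward strand: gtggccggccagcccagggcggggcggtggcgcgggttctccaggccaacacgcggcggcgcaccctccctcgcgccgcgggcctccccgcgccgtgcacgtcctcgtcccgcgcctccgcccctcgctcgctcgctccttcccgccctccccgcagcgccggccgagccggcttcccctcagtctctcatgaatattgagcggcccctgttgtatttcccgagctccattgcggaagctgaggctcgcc
BMI1, chr10:22320849-22321098, forward strand: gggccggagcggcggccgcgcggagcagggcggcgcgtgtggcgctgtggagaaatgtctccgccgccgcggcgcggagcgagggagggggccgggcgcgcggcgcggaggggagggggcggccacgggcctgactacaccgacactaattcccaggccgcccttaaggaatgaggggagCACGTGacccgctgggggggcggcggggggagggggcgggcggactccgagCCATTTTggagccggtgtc
PCGF6, chr10:103351141-103351390, reverse strand: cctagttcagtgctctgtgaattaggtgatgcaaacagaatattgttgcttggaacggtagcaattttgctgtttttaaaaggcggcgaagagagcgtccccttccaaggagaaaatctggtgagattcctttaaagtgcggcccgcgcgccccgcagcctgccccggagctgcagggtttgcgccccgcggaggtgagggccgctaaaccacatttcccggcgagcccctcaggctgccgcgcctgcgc
Over windows of 300 bases that also hold the first 50 bases of the gene, GC content of the 7 members was 59.7% to 81.7%, against a median of 58.3% over 27305 genes. CpG observed over expected was 0.54 to 1.19 in the members, with a median of 0.58 over all genes. The E-box stood in 1 member window, that of BMI1, and in 7.43% of all windows. The YY1 core stood in 3 member windows, those of RNF2, BMI1 and PCGF1, and in 15.9% of all windows; the RNF2 match lies after the gene start, outside the bases printed. These matches describe letters only, and binding was not measured.

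RNF2 (ENSG00000121481.6, chromosome 1, 185014496 to 185071740, forward strand, on GRCh37 as for all members, with 8 merged exon intervals), a catalytic subunit, had 12.1 and 12.0 CPM in RNF2 shRNA1, 33.5 and 35.3 CPM in the libraries labelled RNF2 shRNA2, 29.1 and 29.1 CPM in PRT4165, 26.9 and 28.1 CPM in GW-516, and 30.6 and 28.3 CPM in Scramble. Both RNF2 shRNA1 libraries lay far below the other 8, and both libraries labelled RNF2 shRNA2 lay above the other 8. RNF2 in RNF2 shRNA1 was lower than in Scramble by 2.45-fold (log2 -1.29, SE 0.059, edgeR adjusted p = 2.3e-15), which left RNF2 mRNA detectable in every library. Of 18478 genes tested 7.55% had a larger absolute change in that comparison. In the libraries labelled RNF2 shRNA2 it was 1.17-fold higher (log2 0.23, SE 0.052, edgeR adjusted p = 0.0010). Ordered by level, the libraries labelled RNF2 shRNA2 came first, then Scramble, PRT4165, GW-516 and RNF2 shRNA1. Neighbours among Scramble, PRT4165 and GW-516 did not pass the test.

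RING1 (ENSG00000204227.4, chromosome 6, 33176272 to 33180499, forward strand), which can take the place of RNF2 in the complex, was called against Scramble in GW-516 alone. It had 12.9 and 12.8 CPM in RNF2 shRNA1, 16.2 and 13.8 CPM in the libraries labelled RNF2 shRNA2, 12.9 and 12.9 CPM in PRT4165, 11.9 and 12.4 CPM in GW-516, and 13.6 and 14.0 CPM in Scramble. Of the libraries labelled RNF2 shRNA2, replicate 1 lay above the Scramble range and replicate 2 within it, while the other 3 groups lay below it. In RNF2 shRNA1, where RNF2 fell, the RING1 log2 change was -0.10 with a 95% interval of -0.26 to 0.055 (edgeR adjusted p = 0.27), so any rise above 0.055 on the log2 scale lies outside that interval. RING1 was lower in GW-516 at log2 -0.18 (SE 0.075, edgeR adjusted p = 0.040); that call was lost under 13 of 20 alternatives, among them without either library of Scramble, PRT4165 or GW-516 and without RNF2 shRNA1 replicate 2 (the range of adjusted p was 0.026 to 0.25). No neighbours in the order of the 5 groups differed past the test.

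Per kilobase of exon, RNF2 and RING1 mRNA were at nearly equal levels in 4 of the 5 groups. RNF2 made up 29.4% ± 0.0336 of the summed RING level in RNF2 shRNA1 (SD, n = 2), 50.6% ± 3.67 in the libraries labelled RNF2 shRNA2, 50.2% ± 0.0400 in PRT4165, 50.2% ± 0.0299 in GW-516 and 48.8% ± 1.92 in Scramble. The summed RING level was 10.03 CPM per kb in RNF2 shRNA1, 16.7 in the libraries labelled RNF2 shRNA2, 14.2 in PRT4165, 13.4 in GW-516 and 14.8 in Scramble. On this per-length scale, the balance between the paralogues in RNF2 shRNA1 thus lay with RING1, by the fall of RNF2 and with no called change of RING1. The shares depend on that scale: without division by length, RNF2 made up 48.3% in RNF2 shRNA1 and 68.1% in Scramble. These shares are of mRNA, and protein was not measured.

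**Figure D1:**
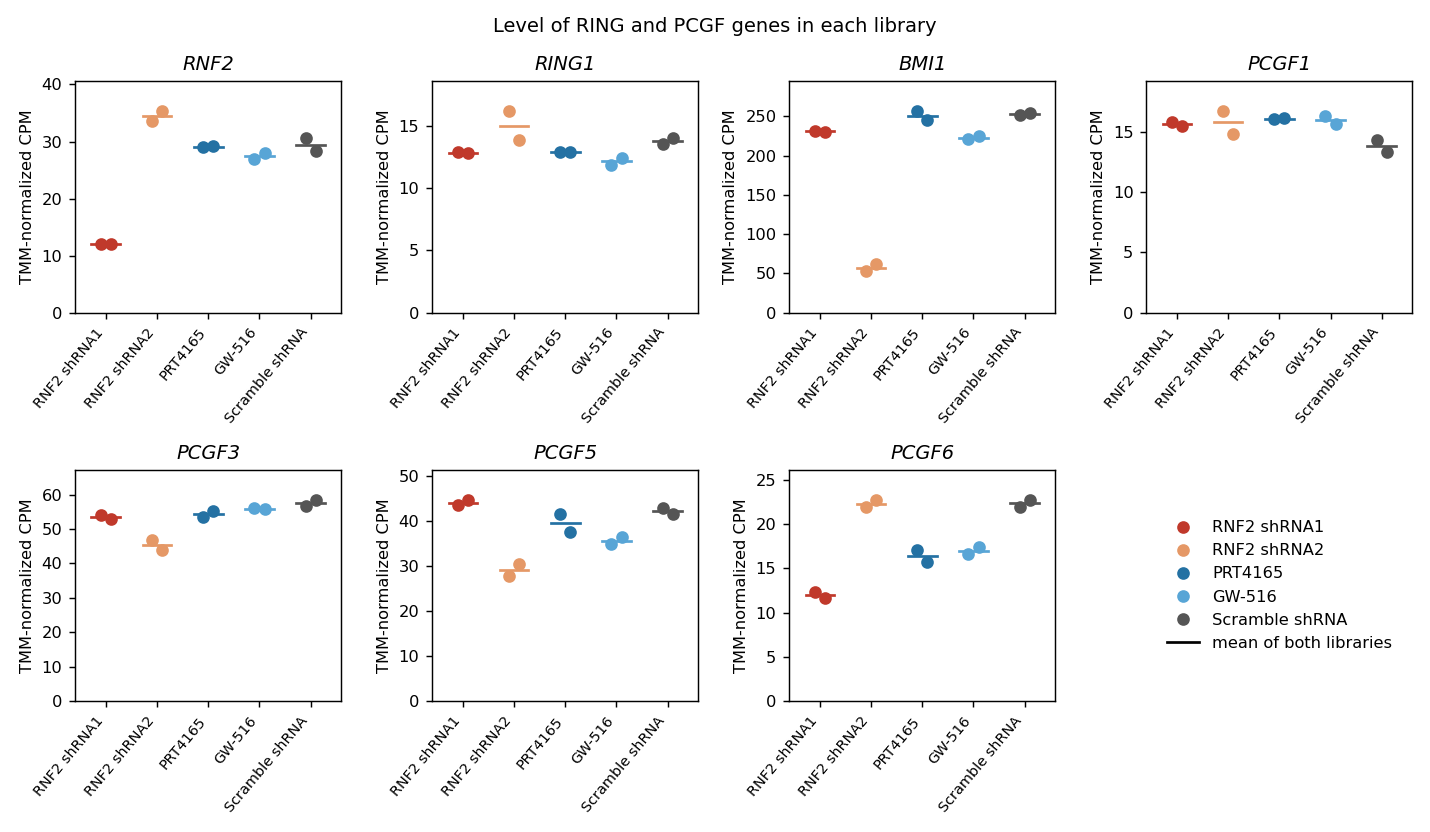
Level of each RING and PCGF gene in TMM-normalized CPM (linear axes from 0) in the 10 libraries, by group from RNF2 shRNA1 to Scramble; each point is a library and each line the mean of both. RNF2 and PCGF6 are lowest in RNF2 shRNA1 (12.1 and 12.0 CPM for RNF2), and BMI1 is at 53.0 and 61.6 CPM in the libraries labelled RNF2 shRNA2, below every other library.

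BMI1 (ENSG00000168283.9, chromosome 10, 22610140 to 22620413, forward strand), the PCGF subunit of canonical PRC1, was the most abundant member mRNA per length in every group. It had 232 and 230.0 CPM in RNF2 shRNA1, 53.0 and 61.6 CPM in the libraries labelled RNF2 shRNA2, 257 and 245 CPM in PRT4165, 221 and 225 CPM in GW-516, and 251 and 255 CPM in Scramble. The 2 libraries labelled RNF2 shRNA2 stood far below the other 8, whose values ran from 221 to 257 CPM. In the libraries labelled RNF2 shRNA2 BMI1 was 4.40-fold below Scramble (log2 -2.14, SE 0.054, edgeR adjusted p = 9.8e-12), and only 1.70% of genes tested had a larger absolute change there. Smaller falls were called in RNF2 shRNA1 (log2 -0.13, SE 0.0501, edgeR adjusted p = 0.042) and in GW-516 (log2 -0.18, SE 0.0499, edgeR adjusted p = 0.0076). The RNF2 shRNA1 call was lost under 11 of 20 alternatives, among them without any single library of RNF2 shRNA1, PRT4165, GW-516 or Scramble. The GW-516 call was lost under 5 of 20, among them without Scramble replicate 2, GW-516 replicate 1 or either PRT4165 library. The adjusted p ranged from 4.8e-08 to 0.33 for RNF2 shRNA1 and from 6.6e-07 to 0.12 for GW-516. In PRT4165 the log2 difference was -0.012, with a 95% interval of -0.12 to 0.097.

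The neighbour upstream of BMI1 was not called. COMMD3 (ENSG00000148444.11, chromosome 10, 22604903 to 22609235, forward strand), which encodes a COMM domain protein and was chosen for its place beside BMI1, had 54.7 and 47.8 CPM in the libraries labelled RNF2 shRNA2, against 53.9 and 51.6 CPM in Scramble. The ranges overlapped, with a log2 difference of -0.046 (95% interval -0.15 to 0.057, edgeR adjusted p = 0.49). A readthrough gene, COMMD3-BMI1, shares 1000 of the 4283 exon bases of BMI1 and had 0 counts in all 10 libraries. The recorded counting command has no option for reads that overlap several genes, so reads on shared exons were counted for neither gene. BMI1 per length is therefore a low estimate, and the 0 counts do not show whether the readthrough was expressed. The pseudogene BMI1P1 had at most 2 counts in any library.

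PCGF6 (ENSG00000156374.10, chromosome 10, 105062553 to 105110891, reverse strand), the subunit of the MGA and L3MBTL2 complex, fell in 3 of the 4 groups set against Scramble. It had 12.3 and 11.6 CPM in RNF2 shRNA1, 21.9 and 22.7 CPM in the libraries labelled RNF2 shRNA2, 17.0 and 15.8 CPM in PRT4165, 16.6 and 17.4 CPM in GW-516, and 21.9 and 22.7 CPM in Scramble. RNF2 shRNA1 was lowest, both compounds lay between, and the libraries labelled RNF2 shRNA2 covered the same range as Scramble. Against the same Scramble libraries, PCGF6 was 1.86-fold lower in RNF2 shRNA1 (log2 -0.90, SE 0.065, edgeR adjusted p = 1.5e-11), 1.36-fold lower in PRT4165 (log2 -0.44, SE 0.062, edgeR adjusted p = 2.3e-06) and 1.31-fold lower in GW-516 (log2 -0.39, SE 0.061, edgeR adjusted p = 5.3e-06). These 3 calls held under every one of 20 alternatives each. The log2 difference in the libraries labelled RNF2 shRNA2 was 0.00011, with a 95% interval of -0.12 to 0.12 (edgeR adjusted p = 0.999). GW-516 and PRT4165 did not differ in PCGF6 past the test (log2 0.048, 95% interval -0.081 to 0.18, edgeR adjusted p = 0.58), and PRT4165 stood above RNF2 shRNA1 (log2 0.45, edgeR adjusted p = 2.2e-06).

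The summed fibroblast and endothelial markers moved in the same groups as PCGF6, through the level of COL1A2. They summed to 146 and 149.8 CPM in RNF2 shRNA1, 254 and 259 CPM in the libraries labelled RNF2 shRNA2, 209 and 214 CPM in PRT4165, 143 and 137 CPM in GW-516, and 253 and 249 CPM in Scramble. COL1A2, a collagen chain, carried that sum, so the sum does not describe the markers as a set. DCN was at 0.243 CPM or less, PDGFRB at 0.910 CPM or less and VWF at 0.159 CPM or less in every library. The part of these markers in the PCGF6 result was not tested. In bulk RNA, fewer cells of a type and less RNA per cell cannot be told apart. Of 50-base stretches of PCGF6 transcripts 9.57% also occur in transcripts of other genes, most of them in the pseudogene PCGF7P, which had 0 counts in all libraries. The share was highest for BMI1, at 21.3%, all of it with the readthrough gene COMMD3-BMI1. It was 2.09% for RNF2, 1.67% for PCGF1, 0.578% for PCGF5 and 0 for RING1 and PCGF3, and no stretch was shared between members.

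PCGF3 and PCGF5, the paralogous subunits of the AUTS2-type complexes, both fell in the libraries labelled RNF2 shRNA2. PCGF5 (ENSG00000180628.10, chromosome 10, 92979908 to 93044088, forward strand) had 43.5 and 44.6 CPM in RNF2 shRNA1, 27.8 and 30.4 CPM in the libraries labelled RNF2 shRNA2, 41.4 and 37.6 CPM in PRT4165, 34.7 and 36.4 CPM in GW-516, and 42.8 and 41.6 CPM in Scramble. The libraries labelled RNF2 shRNA2 were lowest and those of GW-516 next, both below the Scramble range. PCGF5 was 1.45-fold lower in the libraries labelled RNF2 shRNA2 (log2 -0.53, SE 0.053, edgeR adjusted p = 1.3e-08) and 1.19-fold lower in GW-516 (log2 -0.25, SE 0.053, edgeR adjusted p = 0.00031). Neither RNF2 shRNA1 (log2 0.062, 95% interval -0.047 to 0.17) nor PRT4165 (log2 -0.093, 95% interval -0.20 to 0.016) passed the test. In GW-516 PCGF5 was lower than in PRT4165 by log2 -0.15 (SE 0.052, edgeR adjusted p = 0.022), a call lost under 8 of 20 alternatives, without PRT4165 replicate 1, GW-516 replicate 1 or RNF2 shRNA1 replicate 2 among them.

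PCGF3 (ENSG00000185619.13, chromosome 4, 699537 to 764428, forward strand) had 54.1 and 53.0 CPM in RNF2 shRNA1, 46.7 and 43.8 CPM in the libraries labelled RNF2 shRNA2, 53.5 and 55.3 CPM in PRT4165, 56.2 and 55.7 CPM in GW-516, and 56.7 and 58.4 CPM in Scramble. The libraries labelled RNF2 shRNA2 lay below the other 8. The fall in them was 1.27-fold (log2 -0.35, SE 0.042, edgeR adjusted p = 3.1e-07), and it held under all 19 alternatives. In RNF2 shRNA1 the log2 change was -0.10 (SE 0.043, edgeR adjusted p = 0.044), and that call was lost under 15 of 20 alternatives, among them without any 1 of the libraries of RNF2 shRNA1, PRT4165, GW-516 or Scramble (the range of adjusted p was 0.017 to 0.43). An antisense gene, PCGF3-AS1, overlaps 475 exon bases on the other strand, and counting used strand. It was at 5.80 ± 0.0896 CPM in RNF2 shRNA1 and 3.33 ± 0.623 CPM in Scramble (SD, n = 2 each), a rise of log2 0.80 (SE 0.13, edgeR adjusted p = 1.1e-05). It was at 4.89 ± 0.489 CPM in GW-516, a rise of log2 0.56 over Scramble (SE 0.13, edgeR adjusted p = 0.00079). The other genes that overlap a member's span (FTH1P25 at RNF2, RNU11-3P at PCGF6, and a pair of antisense genes with no symbol at PCGF3) had at most 23 counts in any library.

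PCGF1 (ENSG00000115289.8, chromosome 2, 74732170 to 74735707, reverse strand), the subunit of the BCOR and KDM2B complex, was slightly higher than Scramble in all 4 groups. It had 15.8 and 15.5 CPM in RNF2 shRNA1, 16.7 and 14.9 CPM in the libraries labelled RNF2 shRNA2, 16.1 and 16.2 CPM in PRT4165, 16.3 and 15.7 CPM in GW-516, and 14.4 and 13.3 CPM in Scramble. All 8 libraries stood above both Scramble libraries, and the 4 groups did not differ from each other past the test among neighbours in the order. The log2 change was 0.18 in RNF2 shRNA1 (edgeR adjusted p = 0.038), 0.18 in libraries labelled RNF2 shRNA2 (edgeR adjusted p = 0.035), 0.22 in PRT4165 (edgeR adjusted p = 0.014) and 0.21 in GW-516 (edgeR adjusted p = 0.013). These 4 comparisons share the Scramble libraries. Without Scramble replicate 2, the lower of them, all 4 calls were lost, with log2 changes of 0.14, 0.14, 0.18 and 0.17 and edgeR adjusted p of 0.20, 0.23, 0.12 and 0.11 in the same order of groups. The RNF2 shRNA1 call was also lost without either of its own libraries, the GW-516 call without GW-516 replicate 1, and the call in the libraries labelled RNF2 shRNA2 without replicate 1 of that group or either GW-516 library.

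**Figure D2:**
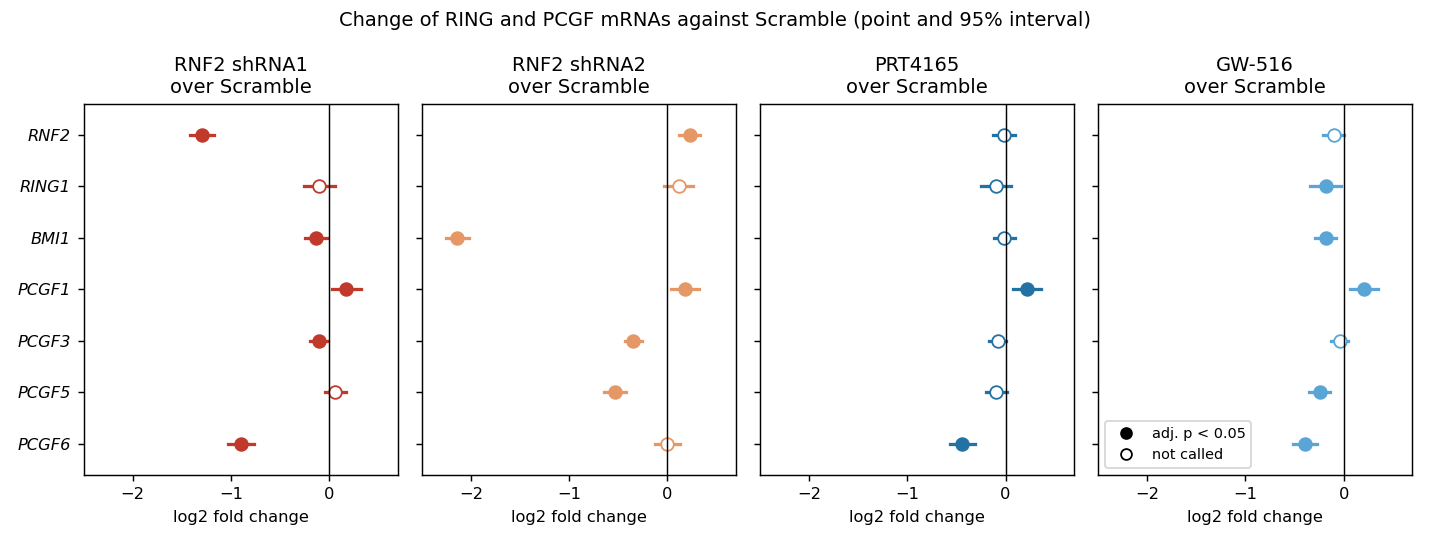
Log2 fold change over Scramble of the 7 genes with 95% intervals (edgeR), in 4 panels from RNF2 shRNA1 to GW-516; filled points have an adjusted p below 0.05. PCGF6 lies below 0 in RNF2 shRNA1 (-0.90), PRT4165 (-0.44) and GW-516 (-0.39), and BMI1 lies at -2.14 in the libraries labelled RNF2 shRNA2.

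Counted over members, calls were read against the share of all genes called. In RNF2 shRNA1, 1 member was called higher and 4 lower of 7, with 54.7% of all genes tested called in that comparison. In the libraries labelled RNF2 shRNA2, 2 were called higher and 3 lower, with a background of 42.1%. In PRT4165, 1 was called higher and 1 lower, with a background of 41.6%, and in GW-516 1 higher and 4 lower, with 55.5%. The count of 5 of 7 lies above each of its background shares, most so in the libraries labelled RNF2 shRNA2, and 2 of 7 lies below its own. These backgrounds include rare genes, and no member was rare. Of 13713 genes with at least 1 CPM in 2 libraries, 9401 were called in RNF2 shRNA1 and 7487 in the libraries labelled RNF2 shRNA2. In PRT4165 7344 of them were called and in GW-516 9267, each a larger share than the background above. Over 7 genes chosen with results known, neither the count of 5 nor that of 2 is read as a result about the members. The median absolute log2 change of the members was 0.13 in RNF2 shRNA1, where that of all genes, rare ones included, was 0.33. It was 0.23 against 0.22 in the libraries labelled RNF2 shRNA2, 0.093 against 0.22 in PRT4165 and 0.18 against 0.31 in GW-516, each time the members' value before that of all genes. With the near-identical pairs of RNF2 shRNA1, GW-516 and Scramble each summed to 1 sample, 2 members were called in RNF2 shRNA1, 1 in PRT4165 and 2 in GW-516. In that fit the spread comes from the libraries labelled RNF2 shRNA2 and from PRT4165 alone, the pairs that differed most, and the summed samples are assumed to vary like them.

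The PCGF makeup shifted most where BMI1 fell. Per kilobase of exon, BMI1 stood at 53.9 ± 0.287 CPM per kb in RNF2 shRNA1 (SD, n = 2), 13.4 ± 1.42 in the libraries labelled RNF2 shRNA2, 58.6 ± 1.85 in PRT4165, 52.01 ± 0.578 in GW-516 and 59.1 ± 0.536 in Scramble. The other 6 members ran from 2.95 CPM per kb, for RNF2 in RNF2 shRNA1, to 8.54 CPM per kb, for PCGF6 in Scramble. BMI1 made up 70.0% of the summed level of the 5 PCGF genes in RNF2 shRNA1, 35.6% in the libraries labelled RNF2 shRNA2, 70.5% in PRT4165, 68.0% in GW-516 and 68.9% in Scramble. In the libraries labelled RNF2 shRNA2 it was still the largest level among these 5 genes, ahead of PCGF6. PCGF2 was not analysed. The PCGF6 share was 5.95% in RNF2 shRNA1, 22.7% in the libraries labelled RNF2 shRNA2, 7.55% in PRT4165, 8.50% in GW-516 and 9.96% in Scramble. In the libraries labelled RNF2 shRNA2 the PCGF6 level did not move past the test. The summed level of the 5 PCGF genes there was 37.6 CPM per kb, against 85.8 in Scramble.

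**Figure D3:**
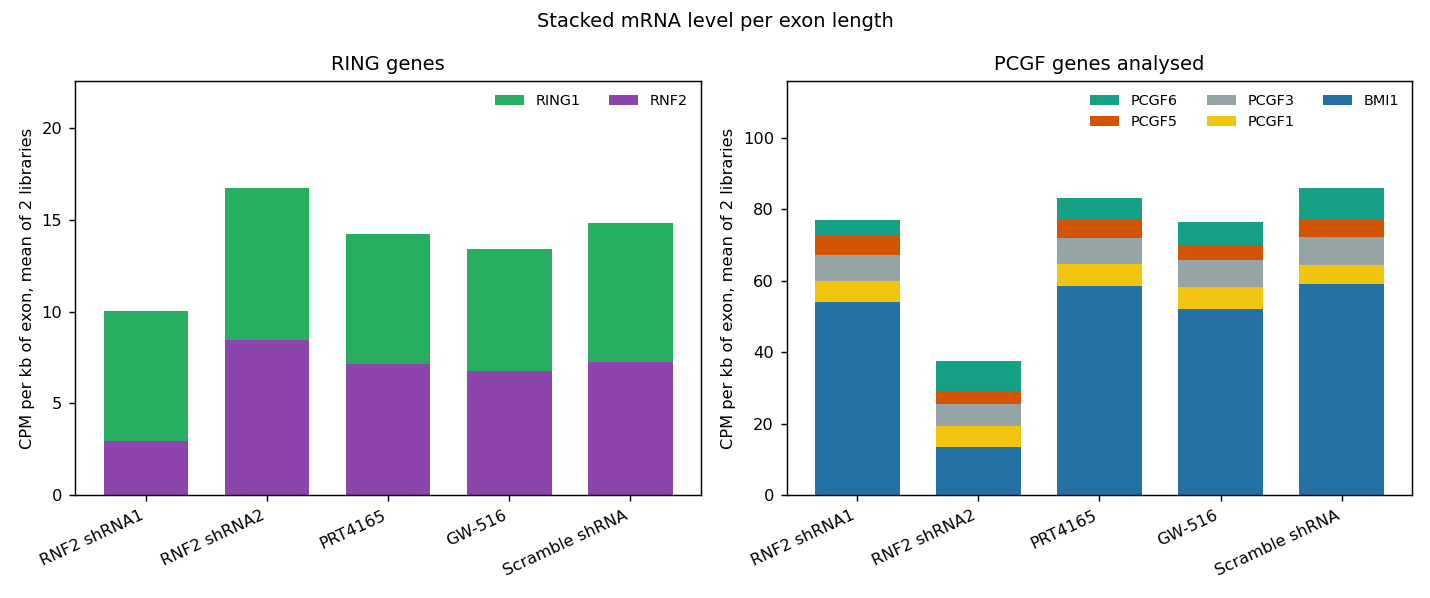
Stacked mean level per kilobase of exon (CPM per kb, mean of 2 libraries, no error drawn) of the RING genes on the left and the 5 PCGF genes on the right, by group. The summed RING level is lowest in RNF2 shRNA1 (10.03 CPM per kb). That of the 5 PCGF genes, without PCGF2, is lowest in the libraries labelled RNF2 shRNA2 (37.6 CPM per kb).

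The 2 hairpin groups differed from each other in 6 of 7 members, 3 higher and 3 lower in the libraries labelled RNF2 shRNA2, with 59.2% of all genes tested called. The difference, libraries labelled RNF2 shRNA2 over RNF2 shRNA1, was log2 1.52 for RNF2, -2.01 for BMI1, 0.90 for PCGF6, -0.59 for PCGF5 and -0.24 for PCGF3, and each of these held under all 19 alternatives. RING1 differed by 0.22 (edgeR adjusted p = 0.015), which was lost without replicate 1 of the libraries labelled RNF2 shRNA2, with log2 0.094, and without either RNF2 shRNA1 library. Between the compounds, BMI1 and PCGF5 were lower in GW-516 than in PRT4165 (2 of 7 members, none higher, background 41.1%), and both calls were lost under several alternatives. The BMI1 difference was log2 -0.17 (SE 0.050, edgeR adjusted p = 0.015); it was lost without any single library of either compound and without RNF2 shRNA1 replicate 2.

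Over the 10 libraries, the genes whose log2 CPM was most alike to that of RNF2 were YWHAG, a 14-3-3 protein (Pearson r = 0.994), SLC35D1, a nucleotide sugar transporter (r = 0.994), and RELCH (r = 0.993), among 10615 genes averaging 5 CPM or more. YWHAG averaged 181 CPM in RNF2 shRNA1, 555 CPM in the libraries labelled RNF2 shRNA2, 499 CPM in PRT4165, 450 CPM in GW-516 and 521 CPM in Scramble. For BMI1 they were NRP1, the neuropilin co-receptor (r = 0.995), STOM, a membrane protein (r = 0.993), and ABCA2, a lipid transporter (r = 0.990). ABCA2 averaged 67.6 CPM in RNF2 shRNA1, 34.6 CPM in the libraries labelled RNF2 shRNA2, 71.7 CPM in PRT4165, 69.6 CPM in GW-516 and 68.7 CPM in Scramble. For RING1 they were MT-ND3 (r = 0.976), TIMM13 (r = 0.972) and COX5A (r = 0.968), which all encode proteins of mitochondria. Among members, RNF2 was most alike to PCGF6 (r = 0.88), and BMI1 to PCGF3 (r = 0.93) and PCGF5 (r = 0.88). Each of these values rests on pairs of libraries from 5 groups, so for RNF2 and BMI1 1 low group sets most of it, and each is a description of these libraries.

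Other Polycomb genes were counted in lists chosen with earlier results known, and the counts are read against all genes tested, rare ones included. Of these, 26.2% were called higher and 28.6% lower in RNF2 shRNA1, 21.1% higher and 21.0% lower in the libraries labelled RNF2 shRNA2, 19.9% higher and 21.7% lower in PRT4165, and 26.5% higher and 29.0% lower in GW-516. Of 11 canonical PRC1 partners (CBX, PHC and SCM-type genes), 3 were called higher and 3 lower in RNF2 shRNA1, 6 higher and 2 lower in the libraries labelled RNF2 shRNA2, 1 higher and 5 lower in PRT4165 and 3 higher and 6 lower in GW-516. In RNF2 shRNA1 the 6 of 11 called are at the background of 54.7%. Median log2 changes of this list were 0.036, 0.16, -0.18 and -0.10 in that order, where those of all genes were -0.015, 0.0086, -0.012 and -0.0025. CBX8, a chromodomain reader of the PRC2 mark, was at 4.01 ± 0.137 CPM in RNF2 shRNA1 and 10.3 ± 0.394 CPM in the libraries labelled RNF2 shRNA2, against 6.71 ± 0.190 CPM in Scramble (log2 -0.74 and 0.62, edgeR adjusted p = 8.3e-07 and 4.1e-06). PHC3, a polyhomeotic protein, rose by log2 0.46 in RNF2 shRNA1, and SCML2 rose by log2 0.50 in the libraries labelled RNF2 shRNA2.

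Of 22 variant PRC1 partners tested out of 23, 4 were called higher and 14 lower in RNF2 shRNA1, 7 higher and 3 lower in the libraries labelled RNF2 shRNA2, 3 higher and 11 lower in PRT4165 and 2 higher and 13 lower in GW-516. Their median log2 changes were -0.19, 0.025, -0.12 and -0.22 in that order. BCOR, the corepressor that pairs with PCGF1, was at 68.6 ± 1.19 CPM in RNF2 shRNA1 and 105 ± 0.273 CPM in Scramble (log2 -0.62, edgeR adjusted p = 3.3e-13). DCAF7, a WD-repeat partner of the PCGF3 and PCGF5 complexes, was at 349.6 ± 2.62 CPM in RNF2 shRNA1 and 286 ± 6.06 CPM in the libraries labelled RNF2 shRNA2, against 238 ± 2.82 CPM in Scramble (log2 0.56 and 0.27). FBRSL1, an AUTS2 paralogue, rose by log2 0.60 in the libraries labelled RNF2 shRNA2 (edgeR adjusted p = 8.6e-10).

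Of 11 PRC2 genes, 4 were called higher and 5 lower in RNF2 shRNA1, 1 higher and 3 lower in the libraries labelled RNF2 shRNA2, 2 higher and 5 lower in PRT4165 and 2 higher and 7 lower in GW-516, with median log2 changes of -0.027, -0.038, -0.14 and -0.34. The 4 of 11 called in the libraries labelled RNF2 shRNA2 lie below the background of 42.1%. PHF1, an accessory subunit, rose by log2 0.92 in RNF2 shRNA1 and EZH1, a methyltransferase subunit, by log2 0.69. RBBP7 and SUZ12, core subunits, fell by 0.17 and 0.19 on the log2 scale in the libraries labelled RNF2 shRNA2. Of 11 H2A deubiquitinase genes and their partners, whose complexes remove the mark that the RING subunits write, 8 were called higher and 0 lower in RNF2 shRNA1, 6 higher and 1 lower in the libraries labelled RNF2 shRNA2, 4 higher and 1 lower in PRT4165 and 2 higher and 1 lower in GW-516. The list's median log2 changes were 0.26, 0.20, 0.068 and -0.024 in that order. In GW-516 the 2 called higher are a smaller share than the 26.5% of all genes. OGT, a partner of BAP1 complexes, was at 802 ± 13.2 CPM in RNF2 shRNA1 and 755 ± 11.7 CPM in the libraries labelled RNF2 shRNA2, against 510.3 ± 4.84 CPM in Scramble (log2 0.65 and 0.57). FOXK1 rose by log2 0.67 in RNF2 shRNA1, and BAP1, the deubiquitinase itself, fell by 0.54 on the log2 scale in the libraries labelled RNF2 shRNA2.

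At the INK4 locus, CDKN2B, a cell cycle inhibitor, rose in all 4 groups against the shared Scramble libraries. It was at 128 ± 2.90 CPM in RNF2 shRNA1, 93.3 ± 4.74 CPM in the libraries labelled RNF2 shRNA2, 93.0 ± 2.80 CPM in PRT4165 and 123 ± 0.786 CPM in GW-516, against 65.2 ± 0.705 CPM in Scramble (SD, n = 2 each). The log2 changes were 0.98, 0.51, 0.51 and 0.92 in that order, each with an edgeR adjusted p of 8.7e-11 or less. CDKN2A was not called in any of the 4 comparisons (edgeR adjusted p from 0.083 to 0.68), and its log2 differences were 0.48, -0.14, -0.33 and -0.10. With all libraries fitted, the CDKN2A estimate was above Scramble in RNF2 shRNA1 and below it in PRT4165. Neither passed the test, so no direction is read from these values. Without the libraries labelled RNF2 shRNA2, both genes were called in RNF2 shRNA1 and in PRT4165. The same held without either of these libraries alone, and without replicate 1 of them CDKN2A was also called in the remaining library.

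**Figure D4:**
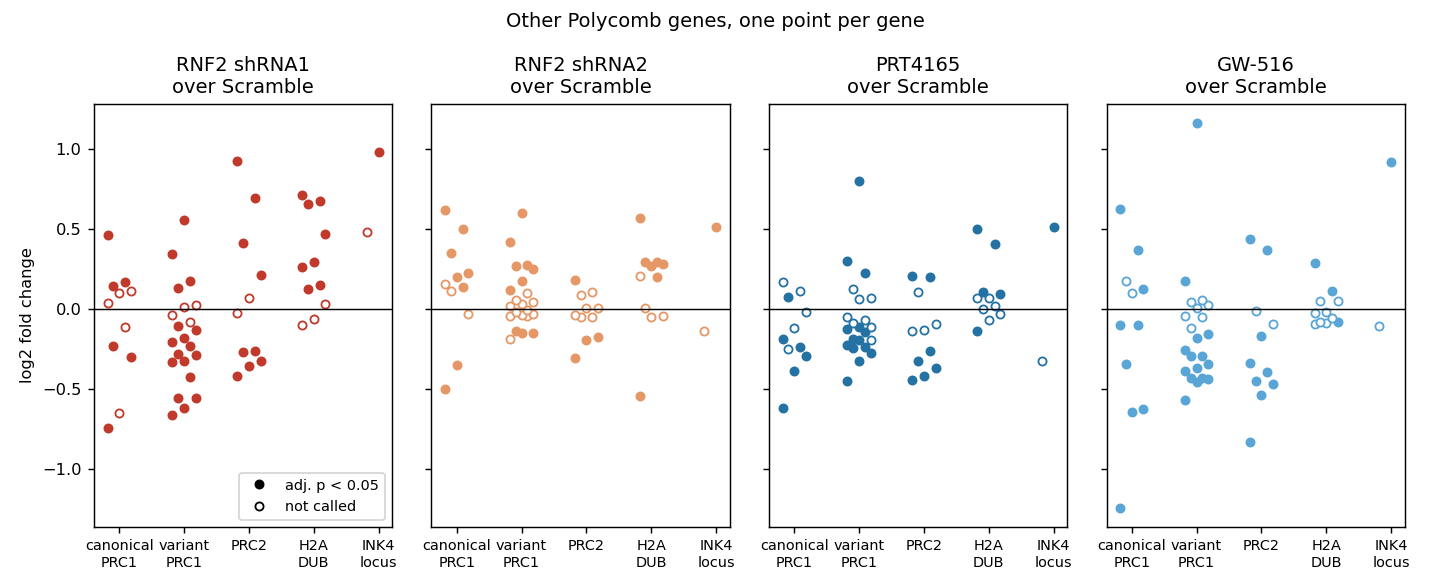
Log2 fold change over Scramble of other Polycomb genes, a point per gene, in 4 panels from RNF2 shRNA1 to GW-516, by list (canonical PRC1 partners, variant PRC1 partners, PRC2, H2A deubiquitinases and partners, INK4 locus); filled points have an adjusted p below 0.05. In RNF2 shRNA1, 14 of 22 variant PRC1 partners lie below 0 as called points, where 28.6% of all genes tested were called lower. Of the 11 genes for deubiquitinases and partners, 8 lie above 0 as called points, where 26.2% of all genes tested were called higher.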

How the data were processed

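Raw counts per gene, not normalized, were deposited by the authors, with 1 table for each of the 10 libraries. Per the file headers they were made with featureCounts 1.4.3-p1 on GENCODE 18 genes with strand option 2 and no read-pair option, so both ends of a fragment could count and counting noise is understated (among counts of 1 to 10, 62.7% to 69.6% were even). The submitters' processing notes name hg19 (GRCh37), STAR and DESeq2 1.8.1, with no roles. Per the labels' protocols libraries were stranded and read from both ends. The handling of reads with several matches is not given there.

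Of 57445 identifiers 51488 (89.6%) matched a symbol. The test was edgeR 4.0.16 in R 4.3.3 (TMM, filterByExpr with a minimum count of 10, 1 coefficient per group, robust quasi-likelihood F tests, two-sided, 5 residual degrees of freedom), with Benjamini-Hochberg adjustment across 18478 genes for each of 10 comparisons, and called at an adjusted p below 0.05. The spread of each gene was estimated over all groups together. Tests of PRT4165 and of the libraries labelled RNF2 shRNA2, whose pairs differed more, therefore borrow spread from the closer pairs, and their p-values may be too small. TMM factors ran from 0.972 to 1.05. Levels of different genes were compared per kilobase of exon. Shares and correlations (log2 of CPM + 0.5) are descriptions. The edgeR fit was tested on simulated counts with the same spread in every group, unlike these pairs. Recovery was judged for genes at 1 CPM or more, a limit set after a first run.

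The 7 genes and the 5 lists of other Polycomb genes were chosen with earlier results of these data known. Named were the members, genes overlapping them, the 3 genes most alike to RNF2, RING1 and BMI1, and 2 genes per list with the smallest adjusted p in each hairpin group. COMMD3 and the pseudogenes were added after values were seen. Tried beside this were DESeq2 1.42.0, limma-voom (limma 3.58.1), RLE size factors, no filter, a filter of 1 CPM in 2 libraries, only the groups compared, a replicate block, a threshold of 0.01, each library left out, the near-identical pairs summed, and, chosen after seeing the data, leaving out both libraries labelled RNF2 shRNA2. Some marker genes are not reported here.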

Additional observations from a re-analysis of the deposited data

Results flagged for a closer look

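The hairpin groups, set against the same Scramble libraries, had different changes in 6 members, and the test was of the difference between them. The libraries labelled RNF2 shRNA2 over RNF2 shRNA1 gave log2 1.52 for RNF2, 0.22 for RING1, -2.01 for BMI1, -0.24 for PCGF3, -0.59 for PCGF5 and 0.90 for PCGF6 (edgeR adjusted p of 0.015 for RING1 and of 2.4e-05 or less for the others). Of all genes tested, 59.2% were called. The compounds differed in 2 members: GW-516 over PRT4165 gave log2 -0.17 for BMI1 (edgeR adjusted p = 0.015) and -0.15 for PCGF5 (edgeR adjusted p = 0.022), with 41.1% of all genes tested called. In each case, hairpins and compounds, both libraries of one group lay on one side of those of the other. These genes were picked as called, and such separation was not counted over all genes, so it adds no support.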

How the results depend on the processing

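In the 6 main comparisons, 704 of 826 member values kept direction and side of the threshold under the alternatives; 86 lost their call, 2 gained one and 34 changed sign. Over all 10 comparisons 42 of 1372 changed sign, none of them a called value, with an absolute log2 of at most 0.087. Members called in RNF2 shRNA1 against Scramble were 5, but 3 with RLE size factors, 2 with pairs summed, 2 at an adjusted p below 0.01 and 2 to 5 with a library left out. In PRT4165 they were 2, but 1 with pairs summed, 1 at 0.01 and 1 to 3 with a library left out. In GW-516 they were 5, but 2 with pairs summed, 3 at 0.01 and 2 to 5 with a library left out. In GW-516 against PRT4165 they were 2, but 1 with DESeq2, 1 with the filter of 1 CPM, 1 with only the groups compared, 0 with pairs summed, 0 at 0.01 and 0 to 2 with a library left out. Without the libraries labelled RNF2 shRNA2 the counts were 5 in RNF2 shRNA1, 2 in PRT4165 and 5 in GW-516.

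The sign changes were log2 0.00067 with no filter, 0.0085 with only the groups compared and -0.036 to 0.034 with a library left out for BMI1 in PRT4165 against Scramble; and 0.0024 with only the groups compared and -0.055 to 0.0502 with a library left out for RNF2. For PCGF6 in the libraries labelled RNF2 shRNA2 against Scramble they were -0.011 with the filter of 1 CPM, -0.0104 with pairs summed, -0.0057 with no filter, -0.012 with only the groups compared and -0.041 to 0.035 with a library left out. For PCGF1 in the libraries labelled RNF2 shRNA2 against RNF2 shRNA1 they were -0.0032 with DESeq2, -0.0044 with RLE, -0.0104 with the filter of 1 CPM, -0.0048 with limma-voom, -0.013 with pairs summed, -0.0055 with no filter and -0.087 to 0.071 with a library left out. For PCGF1 in GW-516 against PRT4165 they were 0.024 with the filter of 1 CPM, 0.0085 with only the groups compared and -0.036 to 0.022 with a library left out, and for PCGF6 there -0.0038 to 0.11 with a library left out. For PCGF1 they were -0.0403 to 0.12 in GW-516 and -0.031 to 0.13 in PRT4165 against the libraries labelled RNF2 shRNA2. In PRT4165 against RNF2 shRNA1 they were -0.0043 to 0.043 for PCGF3 with a library left out, and for RING1 -0.0026 with DESeq2, -0.0026 with RLE, -0.0029 with pairs summed and -0.013 to 0.0090 with a library left out. The cause was not tested.

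Without division by length, RNF2 made up 48.3% of the RING level in RNF2 shRNA1, 69.6% in the libraries labelled RNF2 shRNA2, 69.3% in PRT4165, 69.3% in GW-516 and 68.1% in Scramble, and BMI1 64.8% of the PCGF level in RNF2 shRNA1, 66.5% in PRT4165, 64.1% in GW-516 and 65.1% in Scramble. Over exon length not shared with another gene, the BMI1 share was 75.3% in RNF2 shRNA1, 41.9% in the libraries labelled RNF2 shRNA2, 75.7% in PRT4165, 73.5% in GW-516 and 74.3% in Scramble.

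Same-numbered libraries did not deviate together (correlations from -0.121 to 0.0213), so the numbers are not taken as pairs. With the replicate block, the members called were 4 in RNF2 shRNA1 (PCGF3 lost, log2 -0.10), 5 in the libraries labelled RNF2 shRNA2, 2 in PRT4165 and 5 in GW-516.

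With pairs summed (7 samples, 2 residual degrees of freedom, both from the pairs kept apart), all genes called were 4902 against 7772 in the libraries labelled RNF2 shRNA2, 4911 against 7695 in PRT4165 and 4555 against 7594 in GW-516 over PRT4165, the value with pairs summed given before the other. Variant PRC1 partners called in the libraries labelled RNF2 shRNA2 were then 6 against 10, and deubiquitinase genes 2 against 5 in PRT4165 and 1 against 3 in GW-516 (5 with only the groups compared). The INK4 count of 1 was 2 in RNF2 shRNA1 with DESeq2 and with only the groups compared, and 2 in GW-516 with only the groups compared.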
